A study of Homo sapiens with 15 samples.

Results

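The genes described here are 10 that build or sulfate heparan sulfate: EXT1, EXT2, EXTL2, EXTL3, NDST1, NDST2, HS2ST1, HS3ST1, HS6ST1 and HS6ST2. They were chosen by name and read through the probes whose RefSeq accession belongs to them, and they are 10 of the 19483 genes that could be named in this way. They are read by 12 of the array's 42405 probes that are not controls, because HS2ST1 and HS6ST2 have 2 probes each. The samples are cultures of PE/CA-PJ41, an oral squamous cell carcinoma line. NCE cells, labelled as non-cytoglobin expressing, are given an empty transfection vector by the labels and are called un-transfected in places of the study. CYGB+ cells carry the human cytoglobin cDNA in the pCMV6-Neo vector and were picked as a stable clone, LST421, under G418. CYGB+ is thus 1 clone, so that the effect of cytoglobin and the history of that clone cannot be told apart. Each group had 3 biological replicates, untreated apart from the transfection, and each was hybridised to 3 arrays for NCE and to 2 arrays for CYGB+, giving 15 arrays.

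Heparan sulfate is a long sugar chain carried by proteins of the cell surface and the extracellular matrix. It grows from a short linkage region by alternating addition of glucuronic acid and N-acetylglucosamine, and is then modified in the Golgi, where sulfation of the glucosamine nitrogen precedes most of the O-sulfation steps. The pattern of sulfate groups sets which growth factors, chemokines and proteases bind the chain, and in epithelia such chains act as co-receptors for fibroblast growth factors and shape adhesion to the matrix.

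Of the 12 probes, 2 passed the test, and both were down-regulated in CYGB+ cells. Among all 21300 probes tested, 5.32% were higher and 4.38% lower. These 2 member probes read HS3ST1, which adds the 3-O-sulfate of the antithrombin-binding sequence, and EXT2, which forms the chain-elongating polymerase together with EXT1. For these 2 genes, shown because they are the members that passed in the same direction, the 250 bases before a transcript start are printed. The start is the one that RefSeq's promoter table gives, and that of HS3ST1 lies inside the span annotated for the gene. The bases come from RefSeq and are written 5′ to 3′ on the strand of the gene. Capitals mark the GC box GGGCGG, read on either strand. The HS3ST1 window is chr4:11428895-11429144 (GRCh38.p14, minus strand), and the EXT2 window is chr11:44095428-44095677 (GRCh38.p14, plus strand), the first of 3 starts that the table gives for EXT2.
HS3ST1: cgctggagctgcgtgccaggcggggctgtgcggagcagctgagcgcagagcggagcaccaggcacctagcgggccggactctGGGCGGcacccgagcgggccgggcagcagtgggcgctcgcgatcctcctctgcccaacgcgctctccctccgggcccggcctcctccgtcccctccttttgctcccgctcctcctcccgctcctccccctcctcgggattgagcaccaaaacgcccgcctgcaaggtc
EXT2: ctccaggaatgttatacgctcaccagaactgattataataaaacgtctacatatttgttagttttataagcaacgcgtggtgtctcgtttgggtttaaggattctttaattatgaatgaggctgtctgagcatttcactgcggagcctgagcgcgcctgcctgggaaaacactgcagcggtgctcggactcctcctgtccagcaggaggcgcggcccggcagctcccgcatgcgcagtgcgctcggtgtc

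The bases before HS3ST1 were 73.2% G or C, and those before EXT2 were 52.4%, against a median of 58% over 35116 promoter windows of the same length. The HS3ST1 window held 1 GC box, at which the transcription factor SP1 is known to bind, and the EXT2 window held 0. A GC box was found in 42.6% of all windows and in 6 of the 8 members with a window that was read. Other motifs searched on both strands were TGACNNNGC, the core of the antioxidant response element, and ACGTG, the core of the hypoxia response element. Neither was found before HS3ST1 or EXT2, while the first is held by 10.9% and the second by 18.5% of all windows. Among the 8 members, the antioxidant core occurred in 0 and the hypoxia core in 1, EXTL2.

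All values are green-channel array signals on the log2 scale after quantile normalization, each the mean over the arrays of a biological replicate, and differences are CYGB+ minus NCE. Levels of different probes are not comparable, and fewer transcripts per cell cannot be told apart from fewer cells that express a gene. The p-values are from limma, adjusted by the Benjamini-Hochberg method over the 21300 probes tested, and 0.05 was the threshold. The replicates are RNA extractions of the same line made on separate occasions, so that p-values measure the spread between these extractions, which may be technical. Between 53.8% and 61.3% of spots per array were well above background. Of the marker genes looked at, all 8 for squamous epithelium (among them KRT5, KRT14 and TP63) were well above background on all 15 arrays, and 3 of 6 fibroblast markers were so on none. For leukocytes 1 of 4 (CD14) and for endothelium 0 of 3 were above background on all arrays, CDH5 being so on 8 of 9 NCE and 6 of 6 CYGB+ arrays. The fibroblast marker COL1A2 was at 8.45 in NCE and 5.91 in CYGB+ (adjusted p = 0.0016, limma), so that the summed linear signal of the 6 fibroblast markers was 397 to 488 in NCE and 116 to 165 in CYGB+. Without COL1A2 that sum was 57.0 to 115 in NCE and 67.5 to 109 in CYGB+. Such sums add probes whose levels are not comparable, so that they do not measure the share of a cell type. The part of the COL1A2 difference in the results was not tested.

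The transfected gene was read first, as a check of the labels. The CYGB probe gave 12.84, 13.15 and 12.96 in NCE replicates 1 to 3, and 12.39, 13.45 and 13.02 in CYGB+ replicates 1 to 3. The groups overlapped, and the difference was −0.03 ± 0.27 (SE, n = 3 per group; adjusted p = 0.96, limma). The probe therefore did not separate the groups, and every direction below rests on the labels NCE and CYGB+. The probe was also well above background on all 9 NCE arrays, though the labels call those cells non-cytoglobin expressing. Whether it reads the inserted cDNA is not given in the sources used here. The study also measured CYGB mRNA and protein in this clone by other assays, and describes LST421 as a high expresser. Those assays are not analysed here. The labels give the green dye for every sample. The deposited processed values followed the green signal of the same array, taken relative to the CYGB+ median of each probe. Correlations across probes were 0.90 to 0.97, higher than with any other array's column for 15 of 15 arrays. The red signal was not compared, so this match does not show which dye carried which RNA. The study's methods name the red dye for the control RNA. If that held for these arrays, the green values given here as NCE would not be those of the control RNA, which was not tested.

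The slides bear on every comparison. One slide held 8 NCE arrays only. The other held 1 NCE array, from replicate 1, and all 6 CYGB+ arrays. With the slide as a block over the 15 arrays, the number of all probes passing the test was 262 higher and 379 lower in CYGB+, and within the shared slide, with 1 NCE array against the 3 CYGB+ replicates, it was 29 higher and 16 lower. Both values are given beside each member that passed or came near the threshold. The lone NCE array is assumed there to vary like the CYGB+ replicates. The fit with the slide as a block rests largely on the same NCE array and takes its spread from repeat arrays too, so that it is no independent support, and its p-values may be too small.

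Over all probes tested, 5.32% were higher and 4.38% lower in CYGB+. Among the 12 member probes 0 were higher and 2 lower, by limma. By the methods' t-test the member counts were also 0 and 2, against 417 higher and 331 lower of all 21300 probes. At an unadjusted p under 0.05 by limma, 4 of the 12 member probes differed (HS3ST1, EXT2, HS6ST1 and NDST1), of which NDST1 alone was higher. At the same cut 5947 of all 21300 probes tested differed, so that this count does not set the members apart. The replicates of the groups did not overlap for 2 member probes that were higher (EXT1 and NDST1) and 3 that were lower (EXT2, HS3ST1 and HS6ST1), against 17.7% and 16.3% of all probes tested. The median difference over the 12 probes was −0.09, and over all probes it was 0.01.

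**Figure D1:**
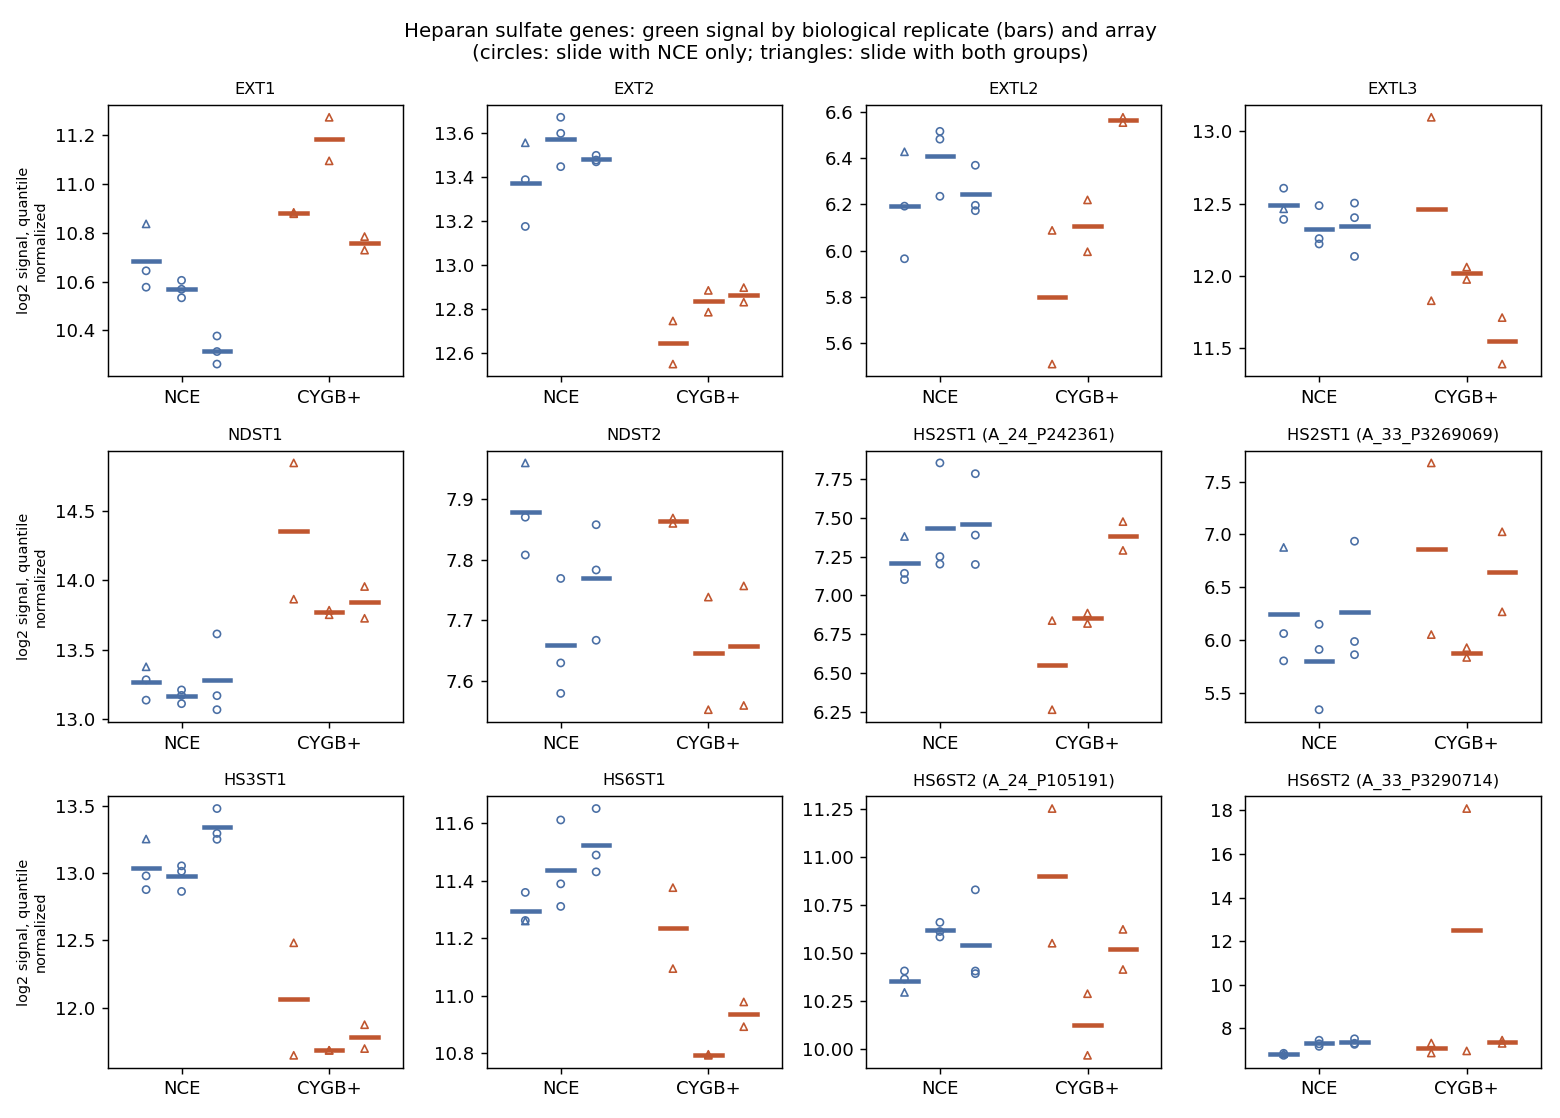
Log2 green signal (y axis, a separate range in each panel) of the 12 probes of the 10 heparan sulfate genes in NCE and CYGB+ cells. Bars are biological replicates 1 to 3 from left to right, open symbols their single arrays, circles the slide that held NCE arrays only and triangles the slide that held both groups. HS3ST1 and EXT2 sat lower in all 3 CYGB+ replicates, and 1 array stood at 18.08 for the second HS6ST2 probe.

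Chain elongation was read by EXT1 and EXT2, the subunits of the polymerase, and by EXTL3 and EXTL2, related transferases that act at the start of the chain. For EXT2 the signal was 13.37, 13.57 and 13.48 in the NCE replicates and 12.65, 12.84 and 12.86 in the CYGB+ replicates. Every CYGB+ replicate lay below every NCE replicate. EXT2 fell by 0.69 ± 0.15 (SE, n = 3 per group), so that NCE was 1.62-fold higher (adjusted p = 0.033, limma). The slide as a block gave −0.84 (adjusted p = 0.025), and the shared slide alone gave −0.77 (adjusted p = 0.48). Leaving out single replicates gave differences of −0.63 to −0.75, with adjusted p of 0.048 without CYGB+ replicate 1 and between 0.063 and 0.14 without any one of the other 5.

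For EXT1, the partner of EXT2, the signal was 10.69, 10.57 and 10.32 in NCE and 10.88, 11.18 and 10.76 in CYGB+. These groups did not overlap either, in the opposite direction, yet the difference of 0.42 ± 0.18 missed the threshold (adjusted p = 0.19, limma; 95% interval −0.01 to 0.84). The NCE array on the shared slide was the highest NCE array, at 10.84, and the difference was 0.14 with the slide as a block (adjusted p = 0.9) and 0.10 within that slide (adjusted p = 0.97). With the 15 arrays in a fit that took the replicate as a random block, EXT1 passed (adjusted p = 0.019). That fit leaves the slide out and takes its spread from repeat arrays too, so that its p-values may be too small. It called 2500 of all probes higher and 2294 lower. The change of EXT1 relative to EXT2 within replicates was 1.11 on the log2 scale, with no overlap between the groups. Since EXT1 was higher and EXT2 lower in every CYGB+ replicate, this separation had to follow. An exact two-sided permutation test gave p = 0.1, the smallest that 3 replicates against 3 allow, for EXT1 relative to EXT2. The exact permutation test also gave p = 0.1 for NDST1 relative to NDST2, and 0.1 after adjustment over these 2 pairs. The pairs were chosen after their values were seen, and the test cannot reach 0.05, so that it decides nothing about them.

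EXTL3 starts the chain by adding the first N-acetylglucosamine. Its signal was 12.49, 12.32 and 12.35 in NCE and 12.46, 12.02 and 11.55 in CYGB+, where the replicates spread more (SD 0.46 against 0.09) and overlapped those of NCE. The difference was −0.38 ± 0.24 (adjusted p = 0.35, limma; 95% interval −0.93 to 0.18). Without the 2 arrays that correlated least with the rest it was −0.62 (adjusted p = 0.029). EXTL2, which can add N-acetylglucosamine to the linkage region, stood at 6.20, 6.41 and 6.25 in NCE and at 5.80, 6.11 and 6.57 in CYGB+. The CYGB+ replicates lay on both sides of NCE, and the difference was −0.13 ± 0.22 (adjusted p = 0.74, limma; 95% interval −0.63 to 0.38).

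N-sulfation was read by NDST1 and NDST2, which remove the acetyl group from glucosamine and put a sulfate in its place. NDST1 was at 13.26, 13.16 and 13.28 in NCE and at 14.35, 13.77 and 13.84 in CYGB+. Each CYGB+ replicate was above each NCE replicate, and the difference was 0.75 ± 0.19 (SE, n = 3 per group), a 1.68-fold higher mean in CYGB+. It lay just outside the threshold (adjusted p = 0.052, limma), and inside it with the replicate number as a block (adjusted p = 0.042). NDST1 was at 0.61 both with the slide as a block (adjusted p = 0.5) and within the shared slide (adjusted p = 0.69). The highest value came from 1 array of CYGB+ replicate 1, at 14.85, while the other 5 CYGB+ arrays lay between 13.73 and 13.96. NDST2 was at 7.88, 7.66 and 7.77 in NCE and at 7.86, 7.65 and 7.66 in CYGB+. These groups overlapped, and the difference was −0.05 ± 0.15 (adjusted p = 0.87, limma), with a 95% interval of −0.41 to 0.31.

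The 2-O-sulfotransferase of uronic acid, HS2ST1, was read by 2 probes that disagreed in sign. Probe A_24_P242361 gave 7.21, 7.43 and 7.46 in NCE and 6.55, 6.85 and 7.38 in CYGB+, a difference of −0.44 ± 0.23 (adjusted p = 0.26, limma). Probe A_33_P3269069 gave 6.25, 5.80 and 6.26 in NCE and 6.86, 5.88 and 6.65 in CYGB+, a difference of 0.36 ± 0.28 (adjusted p = 0.44, limma). The groups overlapped for both probes. With the slide as a block the second probe turned to −0.44, and the first was at −0.53, so that no direction is given for HS2ST1.

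The 6-O-sulfotransferases HS6ST1 and HS6ST2 act on glucosamine. HS6ST1 was at 11.29, 11.44 and 11.52 in NCE and at 11.24, 10.79 and 10.94 in CYGB+. The lowest NCE and the highest CYGB+ replicate, both numbered 1, were separated by 0.06 only. The difference was −0.43 ± 0.17 (adjusted p = 0.16, limma). It was −0.31 with the slide as a block (adjusted p = 0.65) and −0.27 within the shared slide. The NCE array on that slide read 11.26, below the highest CYGB+ array at 11.38. HS6ST1 passed under normexp background correction (−0.51, adjusted p = 0.034) and with the replicate as a random block over the 15 arrays (adjusted p = 0.015). The p-values of the random block fit may be too small, as said for EXT1.

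HS6ST2 was read by 2 probes. A_24_P105191 gave 10.36, 10.62 and 10.54 in NCE and 10.90, 10.13 and 10.52 in CYGB+. The CYGB+ replicates spread on both sides of NCE, and the difference was 0.01 ± 0.22 (adjusted p = 0.98, limma; 95% interval −0.50 to 0.52). A_33_P3290714 gave 6.83, 7.31 and 7.37 in NCE and 7.11, 12.52 and 7.39 in CYGB+. The difference of 1.84 ± 1.29 (adjusted p = 0.39, limma) rested on CYGB+ replicate 2, where 1 array read 18.08 and the other CYGB+ arrays 6.88 to 7.47. Without that replicate it was 0.08 (adjusted p = 0.86).

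The 3-O-sulfotransferase HS3ST1 showed the largest difference of the members that passed. Its signal was 13.04, 12.98 and 13.34 in NCE and 12.07, 11.69 and 11.79 in CYGB+. All 9 NCE arrays (12.86 to 13.48) lay above all 6 CYGB+ arrays (11.65 to 12.48). HS3ST1 fell by 1.27 ± 0.18 (SE, n = 3 per group; 95% interval −1.69 to −0.85), so that NCE was 2.41-fold higher (adjusted p = 0.0084, limma). The pairs of replicates with the same number differed by −0.97, −1.29 and −1.55. The only NCE array on the shared slide read 13.25, in the range of the other NCE arrays (12.86 to 13.48). With the slide as a block the difference was −1.46 (adjusted p = 0.013), and within that slide it was −1.41 (adjusted p = 0.21).

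**Figure D2:**
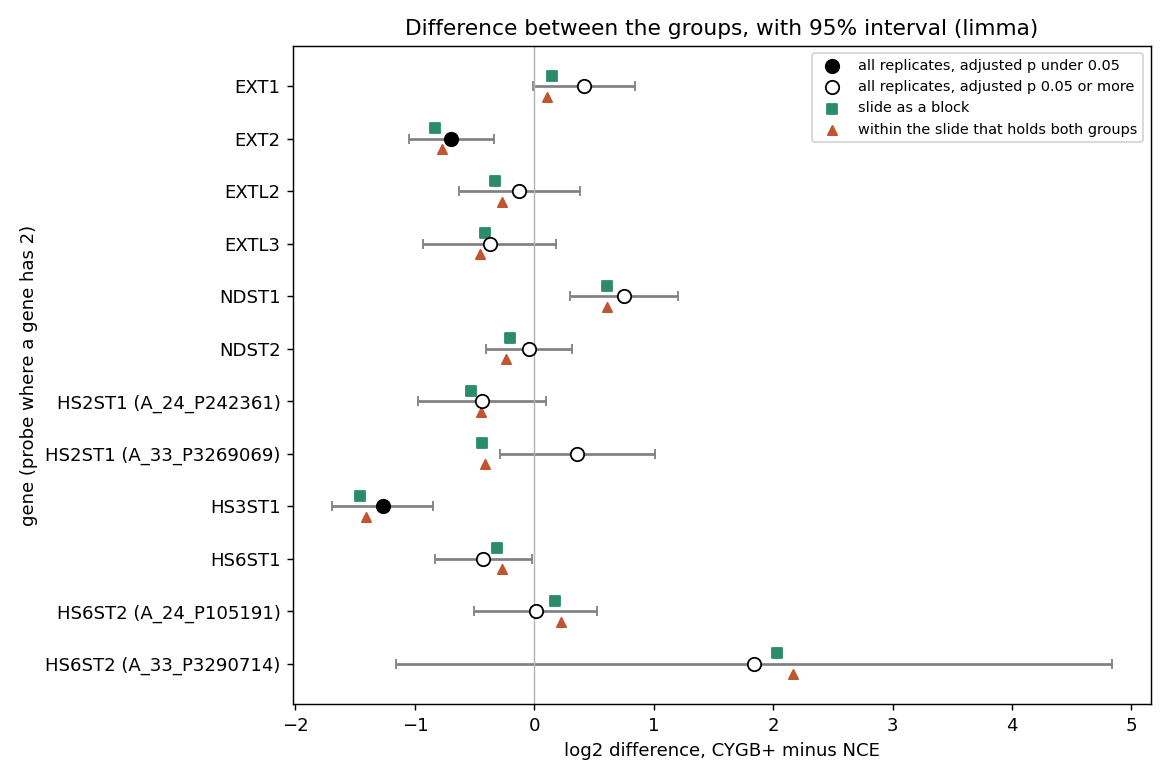
Log2 difference between CYGB+ and NCE (x axis) for each member probe (y axis), with its 95% interval from limma over 3 replicates per group (circles, filled where the adjusted p was under 0.05). Squares give the difference with the slide as a block and triangles that within the slide that held both groups. HS3ST1 at −1.27 and EXT2 at −0.69 are the filled points, EXT1 shrank from 0.42 to 0.14 and 0.10, and the HS2ST1 probe A_33_P3269069 turned from 0.36 to −0.44 and −0.41.

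The rest of the pathway was read in 7 lists that held 63 other genes and 81 probes, of which 52 were tested. Of these, 5 probes were up-regulated and 2 down-regulated in CYGB+, against 5.32% and 4.38% of all probes tested, and the median difference was 0.09. The count of each list below stands against the same shares, and its median against 0.01 over all probes tested. With the methods' t-test the calls of XYLT1 (adjusted p = 0.075), B4GALT7 (0.056), COL18A1 (0.072), IDS (0.061) and CHST3 (0.13) were lost, and those of CHPF2 and SULF2 were kept.

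The other enzymes of polymerisation and modification were largely at background. Of their 11 genes (14 probes), GLCE, the epimerase that turns glucuronic into iduronic acid, was the only one tested, and it was well above background on all 15 arrays. GLCE stood at 8.58 in NCE and 7.76 in CYGB+ (difference −0.82, adjusted p = 0.14, limma), and it passed with the replicate number as a block (adjusted p = 0.04). The 6 other 3-O-sulfotransferase genes, HS6ST3, NDST3, NDST4 and EXTL1 did not pass the filter on dim probes, and 1 probe of these (HS3ST3A1) was well above background on 1 array. HS3ST1 was therefore the only 3-O-sulfotransferase gene that was tested.

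The linkage region, the short sugar stem on which both heparan and chondroitin sulfate are built, had 2 of 6 genes up-regulated and 0 down-regulated, with a median difference of 0.55. Of all probes tested, 5.32% were higher and 4.38% lower, with a median of 0.01. XYLT1, which attaches the first xylose to the core protein, was at 5.95, 5.09 and 5.12 in NCE and at 6.97, 7.63 and 7.74 in CYGB+. XYLT1 rose by 2.06 ± 0.30, or 4.17-fold (adjusted p = 0.0093, limma). The NCE array on the shared slide read 6.41, above the other NCE arrays (4.63 to 5.73) and just below the lowest CYGB+ array (6.43). With the slide as a block the difference was 1.19 (adjusted p = 0.24), and within that slide it was 1.03 (adjusted p = 0.46). B4GALT7, which adds the first galactose, rose by 0.62 ± 0.15 (adjusted p = 0.046, limma), from 8.67, 8.77 and 8.78 in NCE to 9.49, 9.38 and 9.21 in CYGB+. Its call was lost with the slide as a block (0.77, adjusted p = 0.063), with the replicate block (adjusted p = 0.055) and without any one of the 6 replicates (adjusted p 0.065 to 0.15). B4GALT7 kept its call in 5 of the 18 alternatives described below, and lost it also under 75th percentile scaling (adjusted p = 0.056, limma). Under normexp background correction XYLT1 was at 0.83 (adjusted p = 0.013).

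Among the core proteins that carry the chains, 1 of 11 probes tested passed the test. COL18A1, a basement membrane collagen with heparan sulfate chains, fell by 1.20 ± 0.21 (adjusted p = 0.015, limma), from 11.47, 10.89 and 11.53 in NCE to 10.17, 10.01 and 10.12 in CYGB+. It was −1.81 with the slide as a block (adjusted p = 0.0089) and −1.82 within the shared slide (adjusted p = 0.1). Its call was lost without NCE replicate 1 (adjusted p = 0.056) and without NCE replicate 3 (adjusted p = 0.063). The list's median was −0.12.

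Of the enzymes that edit or cleave the chain outside the cell, 1 of 3 probes tested passed. SULF2, which removes 6-O-sulfates, fell by 0.69 ± 0.14 (adjusted p = 0.027, limma), from 12.85, 12.97 and 12.96 in NCE to 12.24, 12.22 and 12.25 in CYGB+. SULF2 was at −0.54 with the slide as a block (adjusted p = 0.16) and at −0.52 within the shared slide (adjusted p = 0.68), and its call held without CYGB+ replicate 1 and was lost without any one of the other 5 replicates (adjusted p 0.06 to 0.12), as it was under 75th percentile scaling (adjusted p = 0.067).

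Lysosomal enzymes that take the chain apart had 1 of 7 probes tested up-regulated and a median difference of 0.28. IDS, the iduronate sulfatase, rose by 1.06 ± 0.18 (adjusted p = 0.015, limma), from 9.24, 9.65 and 9.66 in NCE to 10.68, 10.40 and 10.67 in CYGB+. It was 1.12 with the slide as a block (adjusted p = 0.047) and 1.24 within the shared slide (adjusted p = 0.26), and its other probe was at 0.59 (adjusted p = 0.091). Its call was lost without any one of the NCE replicates (adjusted p 0.0505 to 0.0554).

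The chondroitin and dermatan sulfate branch, which competes for the same linkage region, had 2 of 17 probes up-regulated and a median of 0.17. CHST3, a chondroitin 6-O-sulfotransferase, rose by 0.95 ± 0.23 (adjusted p = 0.045, limma), from 7.63, 7.38 and 7.07 to 8.65, 8.33 and 7.95. CHPF2, a chondroitin polymerising factor, rose by 0.87 ± 0.16 (adjusted p = 0.018, limma), from 8.85 to 9.02 in NCE to between 9.69 and 9.99 in CYGB+. With the slide as a block CHST3 was at 0.61 (adjusted p = 0.55) and CHPF2 at 0.94 (adjusted p = 0.082), and within the shared slide they were at 0.53 (adjusted p = 0.76) and 0.98 (adjusted p = 0.36). CHPF2 lost its call without any one of the NCE replicates (adjusted p 0.066 to 0.074), and CHST3 without any one replicate (adjusted p 0.069 to 0.16) except CYGB+ replicate 3. CHST3 kept its call in 6 of the 18 alternatives described below. It also lost it under normexp background correction (0.58, adjusted p = 0.053, limma) and 75th percentile scaling (0.92, adjusted p = 0.052, limma). Of the 7 genes that supply the sugar nucleotides and the sulfate donor, 0 passed by limma and 1 had an unadjusted p under 0.05. It was PAPSS2, a synthase of the sulfate donor, at −0.57 (adjusted p = 0.1, limma). That unadjusted cut was met by 5947 of all 21300 probes tested.

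**Figure D3:**
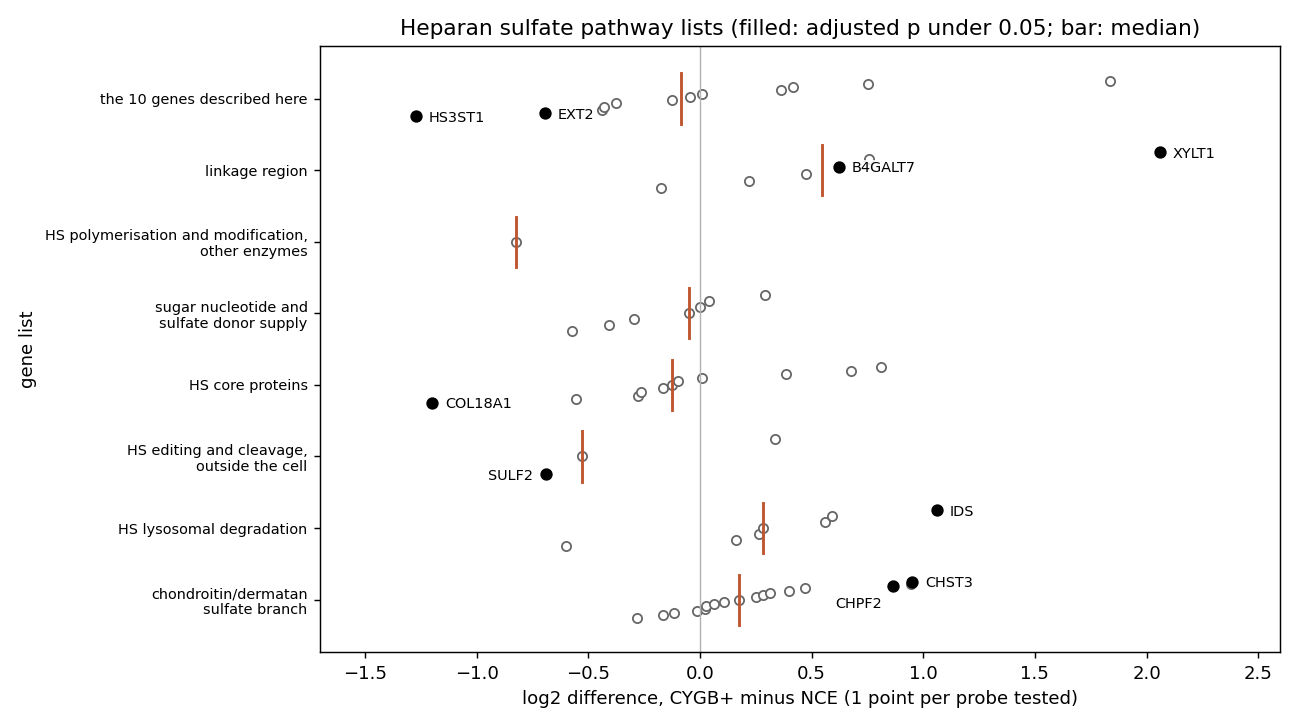
Log2 difference between CYGB+ and NCE (x axis) of each probe tested in the 10 genes described here and in 7 further heparan sulfate pathway lists (y axis). Filled points, named, had an adjusted p under 0.05 by limma, and bars are list medians. The linkage region list has its median at 0.55 and XYLT1 at 2.06, and the 10 genes described here have theirs at −0.09. The median over all probes tested was 0.01.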

How the data were processed

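The deposited files are the scanner output of each array, a 2-colour Agilent 8 x 60K design. The authors' scanner software gave the green processed signal as an intensity that was background-subtracted and dye-normalized, so that it depends in part on the red channel, whose RNA the labels do not name and which was not used here. The labels give Cy3 for all 15 samples, while the study's methods name different dyes for the groups. The deposited flag columns (well above background, outlier) are codes of the same software. The deposited table of processed values holds natural log signals that the authors had centred on the CYGB+ median of each probe, and was used as an alternative.

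Green intensity was log2-transformed and quantile-normalized between arrays, spots with an outlier flag were left out, spots of 1 probe were averaged, and arrays were averaged per replicate. Probes well above background on all arrays of at least 2 replicates of a group were tested with limma 3.58.1 (R 4.3.3), 3 against 3, without a block. Named genes are all probes of the members, CYGB, and from each pathway list those past the threshold, up to 3. The members and lists were chosen with earlier results of these data known. Of 27310 probes with a RefSeq accession, 25422 matched a symbol. 1 gene of the lists is not reported here and was left out of their counts. The number of arrays limits the precision.

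Replicate numbers come from the labels. Deviations from the group means correlated at 0.23, 0.26 and 0.31 between same-numbered replicates, and at −0.51 to 0.25 between differently numbered ones. Each of the first is over 0.1, but NCE replicates 1, 2 and 3 also correlated with CYGB+ replicates 2, 3 and 1 at 0.19, 0.25 and 0.17. The correlations therefore do not settle whether the numbers pair the samples. The main fit left the pairing out, and the fit with the replicate block, which uses it, is given as an alternative. The normexp alternative (offset 50) used median signals, which precede dye normalization.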

Additional observations from a re-analysis of the deposited data

Results flagged for a closer look

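Each member probe and CYGB was read over the single arrays of each group, and in 3 of 26 such sets 1 array stood far from the others. For independent values, chance alone would give this in about 1 in 20 groups. The arrays are repeats within 3 biological replicates, so that this rate may not hold for them. CYGB+ replicate 1 array 1 read 14.85 for NDST1, where the other 5 CYGB+ arrays read 13.73 to 13.96. The same array read 12.48 for HS3ST1, with the others at 11.65 to 11.88. It had the lowest median correlation with the other arrays, 0.944, and the lowest 75th percentile of signal, 8.93 on the log2 scale, of the 15 arrays. CYGB+ replicate 2 array 2 read 18.08 for the HS6ST2 probe A_33_P3290714, with the others at 6.88 to 7.47. Without CYGB+ replicate 1 array 1 and NCE replicate 3 array 2, a choice made after seeing the data, HS3ST1 was at −1.39 (adjusted p = 0.0013, limma) and NDST1 at 0.64 (adjusted p = 0.011, limma). The cause of these readings was not tested.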

How the results depend on the processing

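Alternatives numbered 18, of which leaving out the 2 arrays that correlated least was added after seeing the data. HS3ST1 kept its direction in the 17 that held its probe and its call in 16 (not within the shared slide, and the slide block among the 16 is nearly the same contrast), and EXT2 kept its direction in 18 and its call in 11. EXT2 was at −0.56 (adjusted p = 0.062, limma) under 75th percentile scaling. With the replicate block, that is the paired fit, NDST1 passed among the members, and of the 52 list probes GLCE and CHST13 (adjusted p = 0.04 and 0.023) gained a call and B4GALT7 lost it. The cause of the changes was not tested. Signal near background limits the lists, since 29 of their 81 probes were not tested.

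Counts of all probes (higher and lower in CYGB+, against 1134 and 932) were 648 and 569 with no filter on dim probes, which adds probes to the adjustment, 417 and 331 with the methods' t-test, 2500 and 2294 with the replicate as a random block over 15 arrays, 262 and 379 with the slide as a block, 29 and 16 within the shared slide, 2160 and 1917 without the 2 arrays, and 1579 and 1420 with the replicate block. They were 1198 and 1180 under normexp background, 987 and 784 under 75th percentile scaling, and 982 and 799 with outlier spots kept. With the filter on all arrays 991 and 981 of 17667 probes passed, and in the authors' processed values 764 and 680 of 15031. Leaving out single replicates gave 288 (without NCE replicate 2) to 1067 higher and 231 (without NCE replicate 2) to 889 lower.

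Member probes called higher numbered 1 under normexp background, with the filter on all arrays, with the replicate block and without the 2 arrays, and 2 with the replicate as a random block. Those called lower numbered 3 under normexp, with the replicate as a random block (HS6ST1 in both) and without the 2 arrays, 1 under 75th percentile scaling and in the authors' processed values, which hold 6 of the 12 probes, and 0 within the shared slide. Leaving out single replicates left 0 higher in each and 1 to 2 lower, the 2 only without CYGB+ replicate 1.

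List probes called higher (against 5) numbered 3 under 75th percentile scaling and with no filter on dim probes, 2 with the methods' t-test, 13 with the replicate as a random block, 1 with the slide as a block, 0 within the shared slide and 9 without the 2 arrays. Those called lower numbered 5 under normexp, 1 under 75th percentile scaling, the t-test, the slide block and in the authors' values, 8 with the replicate as a random block, 0 within the shared slide and 5 without the 2 arrays. Leaving out single replicates gave 1 (without any one of the NCE replicates) to 4 higher and 0 (without NCE replicate 1 or 3) to 2 lower.

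Signs turned for values that did not pass the test. CYGB was at 0.0912 under 75th percentile scaling and 0.0467 in the authors' values, and at −0.277 to 0.255 without single replicates (the lowest without CYGB+ replicate 2, the highest without CYGB+ replicate 1). EXTL2 ranged from −0.331 to 0.0522 without single replicates (above 0 without CYGB+ replicate 1), NDST2 from −0.117 to 0.00831 (above 0 without NCE replicate 1) and HS6ST2 (A_24_P105191) from −0.182 to 0.204 (below 0 without CYGB+ replicate 1 and without NCE replicate 1). HS6ST2 (A_24_P105191) was at −0.0585 without the 2 arrays, and HS2ST1 (A_33_P3269069) at −0.437 with the slide as a block and −0.413 within the shared slide.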
